A study of Homo sapiens with 20 samples.

Results

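The suppressors of cytokine signalling (SOCS1 to SOCS7), their relative CISH, the transcription factor STAT3 and the receptor subunit gp130 (gene IL6ST) were examined as 10 genes among the 58735 gene rows of the messenger RNA tables. They were chosen by gene name, with their fold changes between aerosol and filtered air already known, so their differences between the groups are given as a description and no test is read from them. The cells were AC16, an established human cardiomyocyte line made by fusing adult ventricular heart cells with a transformed fibroblast line, and they divide in culture. One group of 5 libraries came from cells exposed to e-cigarette aerosol at an air–liquid interface, and the other group of 5 from cells exposed to filtered air in that system. All cells had grown in DMEM/F12 medium with serum and antibiotics. The design text calls the libraries biological replicates, and the labels give neither the aerosol's make-up nor its dose or the length of exposure.

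Cytokines of the interleukin-6 family bind a specific receptor that joins gp130, and the Janus kinases (JAK) on its tail then phosphorylate STAT3, which enters the nucleus and switches on target genes. SOCS3 is itself such a target, and its protein binds gp130 and the kinases and shuts the signal off. SOCS1 and SOCS3 block the kinases directly, CISH and SOCS2 act mainly on receptors that use STAT5, and the SOCS box at the end of each protein recruits a ubiquitin ligase. In heart muscle, signalling through gp130 and STAT3 is known for protecting cells under stress, and SOCS3 restrains it.

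The promoters were searched for the element that STAT proteins bind, the palindrome TTCNNNGAA, which reads the same on both strands. RefSeq promoters (GRCh38.p14) were held for 7 of the 10 genes, in 8 windows of 250 bases before a transcript start. The palindrome occurred in 1 of the 8 windows, that of CISH, against 6.57% of 35116 windows of all genes. The CISH window had 4 matches, starting 241, 230, 129 and 112 bases before the start, and both windows of SOCS3 had none. The first sequence below is that of CISH at chr3:50611775-50612024, minus strand, and is shown for its 4 matches, in capitals. The second is the SOCS3 window at chr17:78360926-78361175, minus strand, shown as the promoter of the member with the largest log2 fold change of the 10. A match is a run of letters and not a measured binding site, and its absence speaks for these windows alone.
CISH promoter: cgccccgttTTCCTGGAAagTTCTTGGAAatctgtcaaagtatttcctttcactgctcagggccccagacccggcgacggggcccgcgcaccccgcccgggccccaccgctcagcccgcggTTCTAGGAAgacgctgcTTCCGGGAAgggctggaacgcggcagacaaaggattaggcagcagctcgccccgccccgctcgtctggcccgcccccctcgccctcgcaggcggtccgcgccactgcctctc
SOCS3 promoter: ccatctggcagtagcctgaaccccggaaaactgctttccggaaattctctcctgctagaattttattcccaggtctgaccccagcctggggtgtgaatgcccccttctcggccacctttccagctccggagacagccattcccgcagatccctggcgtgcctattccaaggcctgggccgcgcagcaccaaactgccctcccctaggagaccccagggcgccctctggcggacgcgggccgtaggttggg

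The libraries of the 2 groups differed beyond the genes described here. Total counts were 60482726 to 72099157 per aerosol library and 65902331 to 88806394 per filtered air library. Mitochondrially encoded genes took 12.4% to 19.5% of counts after the aerosol and 7.75% to 10.3% in filtered air, and the nuclear RNA MALAT1 was at 7486 to 44762 CPM (counts per 1000000 counts of the library, whose size was scaled by the trimmed mean of M-values) after the aerosol and at 2797 to 3765 CPM in filtered air. Aerosol libraries 4 and 5 stood apart in a principal component analysis, scoring 82.2 and 206 on the leading axis, where the other libraries scored between -50.7 and 1.11. Filtered air library 5 had the highest MALAT1 of its group and also its lowest SOCS3 and highest IL6ST. Its mitochondrial share, at 7.75%, was however the lowest of all 10 libraries. Of 12 cardiomyocyte markers, 6 had no count in any library, among them TNNT2, MYH6 and MYH7, and 10 stayed under 2 CPM throughout, leaving GATA4 and TTN. Summed markers of 7 fibroblast and mesenchyme genes were at 6027 to 6840 CPM after the aerosol and at 7973 to 8673 CPM in filtered air. The vimentin gene VIM, which fell (edgeR adjusted p = 0.00741), made up the largest part of that sum (3912 ± 333 CPM after the aerosol and 5532 ± 113 CPM in filtered air, SD, n = 5 each), while FAP rose (edgeR adjusted p = 0.0342, 49.2 ± 9.48 CPM after the aerosol and 31.8 ± 2.22 CPM in filtered air, SD, n = 5 each) and COL3A1 had a log2 fold change of 0.11 ± 0.12 (standard error). Below 0 but not called were COL1A1 (-0.22 ± 0.10), COL1A2 (-0.24 ± 0.11), THY1 (-0.45 ± 0.17) and PDGFRB (-0.18 ± 0.18), on the same scale. Summed endothelial (4 genes) and epithelial (4 genes) markers reached at most 3.48 CPM in any library, and the sum of 5 leukocyte markers was at 33.2 to 56.7 CPM after the aerosol and at 35.9 to 60.6 CPM in filtered air, nearly all of it CD68. The part of these shifts in the levels of SOCS3, STAT3 and IL6ST was not tested. In bulk RNA, fewer cells of a kind and less RNA per cell cannot be told apart.

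SOCS3 was the member with the largest difference for its error. It stood at 15.6, 15.4, 11.5, 6.72 and 9.88 CPM in aerosol libraries 1 to 5, against 30.4, 32.6, 27.8, 22.6 and 19.0 CPM in filtered air libraries 1 to 5. The groups did not overlap, and aerosol libraries 4 and 5 were the lowest of all. These levels rested on 433 to 1072 counts per aerosol library and 1524 to 2824 per filtered air library. The mean was 11.8 ± 3.78 CPM after the aerosol and 26.5 ± 5.58 CPM in filtered air (SD, n = 5 each), and the fitted level after the aerosol was 44.7% of that in air, a log2 fold change of -1.16 ± 0.24 (standard error). SOCS3 lies on chromosome 17 (GRCh38.p14, 78356778 to 78360925).

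STAT3, the factor that SOCS3 holds back, was also lower. Its level was 114, 122, 90.3, 101 and 93.0 CPM in aerosol libraries 1 to 5, against 125, 135, 151, 130 and 137 CPM in filtered air libraries 1 to 5. These groups did not overlap either, although aerosol library 2 and filtered air library 1 lay close together. The means were 104 ± 13.5 CPM after the aerosol and 135 ± 9.70 CPM in filtered air (SD, n = 5 each), a log2 fold change of -0.38 ± 0.11 (standard error). The gene lies on chromosome 17 (GRCh38.p14, 42313324 to 42388442).

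IL6ST, which encodes gp130, the shared signalling chain of the receptors, went the other way. It was at 420, 458, 531, 533 and 499 CPM in aerosol libraries 1 to 5, against 348, 354, 356, 384 and 471 CPM in filtered air libraries 1 to 5. The groups overlapped through filtered air library 5 alone, which was above aerosol libraries 1 and 2. The means were 488 ± 48.6 CPM after the aerosol and 383 ± 51.6 CPM in filtered air (SD, n = 5 each), a log2 fold change of 0.35 ± 0.11 (standard error). The gene lies on chromosome 5 (GRCh38.p14, 55935095 to 55994963).

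Ratios of the read counts of these 3 genes inside a library need no scaling. The 3 genes were chosen with this comparison known, and the ratios restate the differences given above. That they separate the groups is thus no further support for those differences. There were 3.69, 3.76, 5.88, 5.26 and 5.36 IL6ST reads per STAT3 read in aerosol libraries 1 to 5, against 2.79, 2.62, 2.36, 2.96 and 3.45 in filtered air libraries 1 to 5. Every aerosol ratio was above every filtered air ratio, and the geometric mean was 1.67-fold higher after the aerosol. SOCS3 reads per IL6ST read were between 0.0126 and 0.0371 after the aerosol and between 0.0404 and 0.0920 in filtered air. The ratio of SOCS3 to STAT3 reads was between 0.0664 and 0.137 after the aerosol and between 0.139 and 0.243 in filtered air, so these groups nearly touched. Because the ratios are of reads and not of molecules per gene length, they serve to compare libraries and not the genes with each other.

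**Figure D1:**
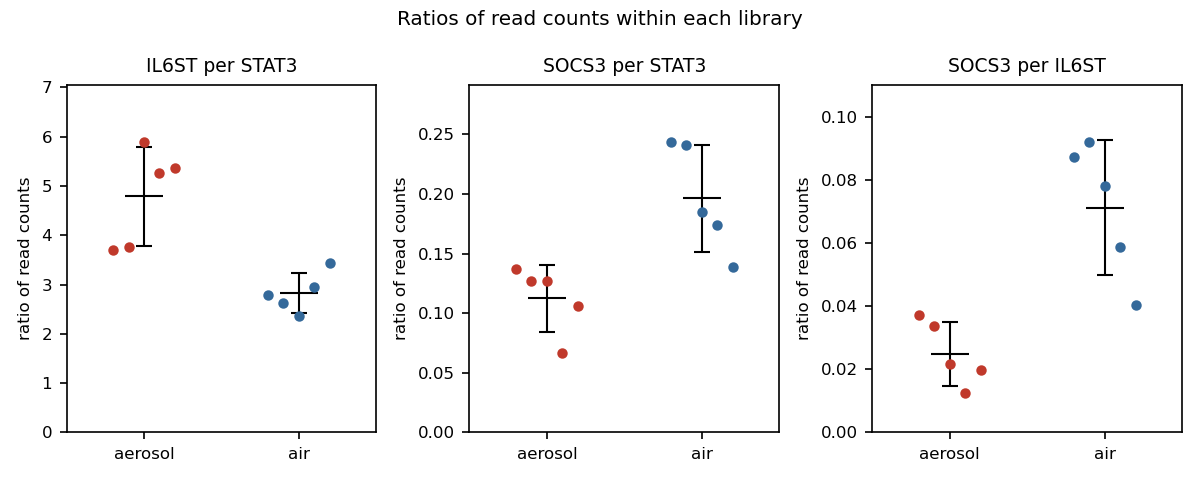
Ratio of read counts (vertical axis, no unit) of IL6ST to STAT3, SOCS3 to STAT3 and SOCS3 to IL6ST within each of the 5 aerosol and 5 filtered air libraries (points), with bars for the mean ± SD. The IL6ST to STAT3 ratio is at least 3.69 in aerosol libraries and at most 3.45 in filtered air libraries, and both SOCS3 ratios are lower in all aerosol libraries.

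In every other SOCS gene and in CISH the groups overlapped. SOCS7, known in mice for restraining insulin signalling, was also at a lower mean. It was at 23.6, 8.91, 18.4, 10.2 and 9.37 CPM in aerosol libraries 1 to 5, against 26.3, 22.4, 26.8, 22.5 and 15.6 CPM in filtered air libraries 1 to 5. Aerosol libraries 1 and 3 lay inside the range of filtered air, and the log2 fold change was -0.69 ± 0.28 (standard error). SOCS6, which targets receptor tyrosine kinases such as KIT, was at 55.3 to 78.9 CPM after the aerosol and at 50.8 to 60.2 CPM in filtered air. Its highest values were those of aerosol libraries 4 and 5, the same libraries in which SOCS3 was lowest, and its log2 fold change was 0.26 ± 0.12 (standard error), or 0.09 ± 0.10 without those libraries.

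SOCS4 and SOCS5, which are known to act on the epidermal growth factor receptor, were nearly level. SOCS5 had 206, 250.1, 269, 215 and 219 CPM in aerosol libraries 1 to 5, against 215, 224, 183, 212 and 231 CPM in filtered air libraries 1 to 5, a log2 fold change of 0.12 ± 0.10 (standard error). SOCS4 had 70.9, 61.6, 72.4, 70.7 and 73.5 CPM in aerosol libraries 1 to 5, against 78.5, 64.2, 81.6, 73.5 and 82.8 CPM in filtered air libraries 1 to 5, a log2 fold change of -0.12 ± 0.10 (standard error). Their replicates were close together, with coefficients of variation between 6.80% and 11.5% in either group.

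SOCS1, SOCS2 and CISH were low or erratic. SOCS1, an inhibitor of interferon signalling, was at 0.666 to 1.82 CPM after the aerosol and at 0.272 to 1.28 CPM in filtered air, on 25 to 117 counts per library. Its log2 fold change was 0.75 ± 0.58 (standard error), opposite in sign to that of SOCS3, and 0.53 to 0.98 with single libraries left out. SOCS2, which restrains growth hormone signalling, was at 13.9, 5.31, 4.37, 1.15 and 6.98 CPM in aerosol libraries 1 to 5, against 5.98, 10.1, 3.33, 2.48 and 3.92 CPM in filtered air libraries 1 to 5. The replicates of SOCS2 thus spanned 12.1-fold after the aerosol and 4.09-fold in filtered air, and its log2 fold change of 0.30 ± 0.55 (standard error) was smaller than its error. Without aerosol library 1 that fold change was -0.22. CISH, a feedback inhibitor induced by STAT5, ran between 0 and 3.07 CPM after the aerosol and between 0.576 and 2.19 CPM in filtered air. Aerosol library 5 had 0 CISH counts, which allows up to 0.0555 CPM (3 counts, counting error only). The CISH fold change (-0.09 ± 0.94 on the log2 scale) was -0.98 without aerosol library 1 and 0.28 without filtered air library 2.

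**Figure D2:**
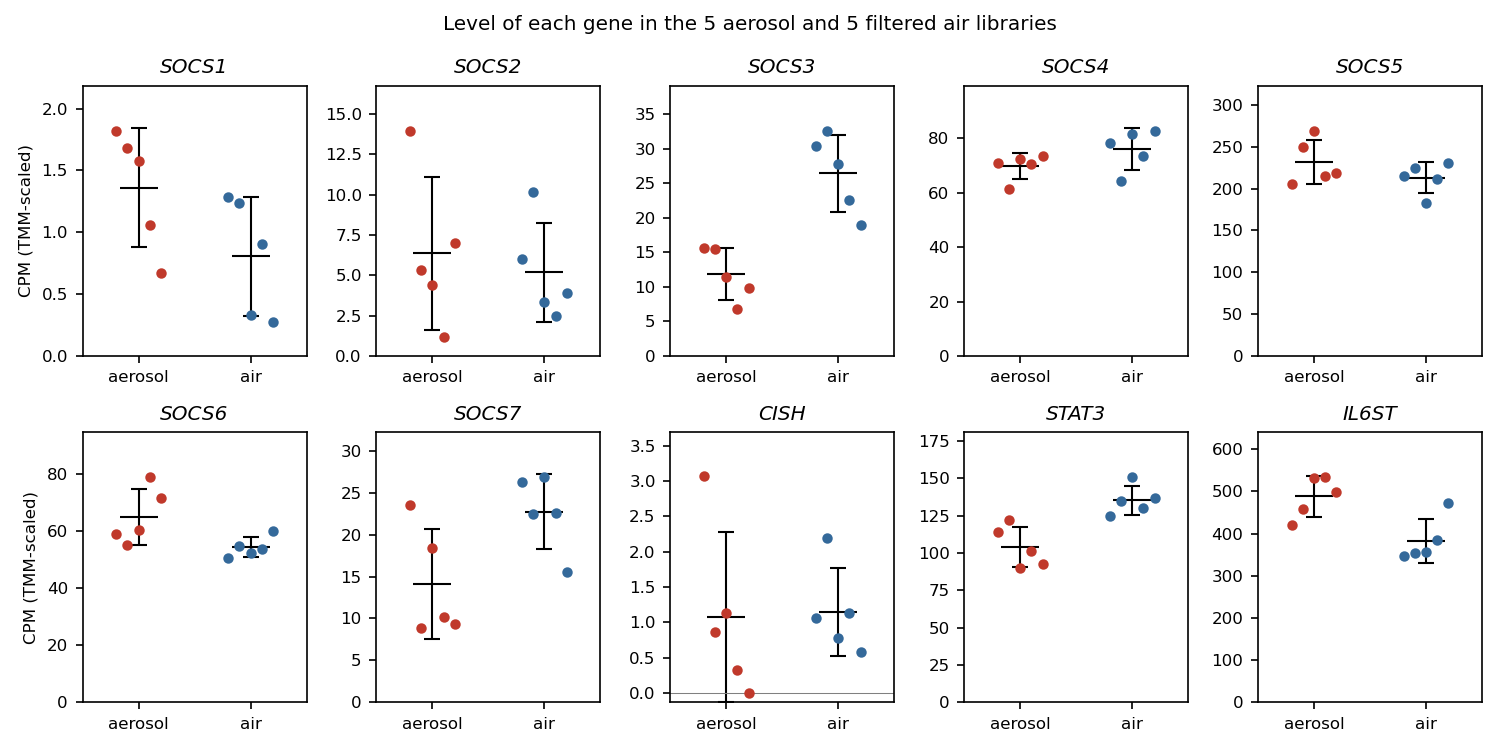
Level of each of the 10 genes in CPM (vertical axis, its own scale in each panel) in the 5 aerosol and 5 filtered air libraries (points, in replicate order from left to right), with bars for the mean ± SD. SOCS3 and STAT3 are lower in all aerosol libraries, and IL6ST is higher except that filtered air library 5, at 471 CPM, reaches into the aerosol range.

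Of the 10 genes, 5 had a log2 fold change below 0 and 5 above it, with a median of 0.02, against -0.0042 and 50.4% of genes below 0 over all 20166 genes tested. SOCS3 was the 1 member called lower (adjusted p under 0.05 in edgeR's quasi-likelihood fit over all genes), where 1.39% of all genes were called lower and 3.01% in either direction. No member was called higher, against 1.62% of all genes. With no adjustment for multiple testing, 3 members had a p under 0.05 and were lower and 1 was higher, against 18.3% of all genes in either direction. DESeq2 called 2 lower and 1 higher (SOCS3, STAT3 and IL6ST), against 8.91% of the 17789 genes to which it gave an adjusted p, and limma-voom called SOCS3 alone, against 3.33% of all genes. The groups did not overlap in 2 of the 10 genes, both lower after the aerosol, against 7.45% of all genes, 3.52% higher and 3.93% lower. Since the genes were put together with this comparison known, nothing is read from these counts. SOCS3 was not called without aerosol library 3 or filtered air library 1, 2 or 3, and STAT3 was called without aerosol library 2 and IL6ST without filtered air library 5. The log2 fold change of SOCS3 was between -1.29 and -1.02 whichever library was left out, and -0.91 ± 0.20 (standard error) without aerosol libraries 4 and 5 together.

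**Figure D3:**
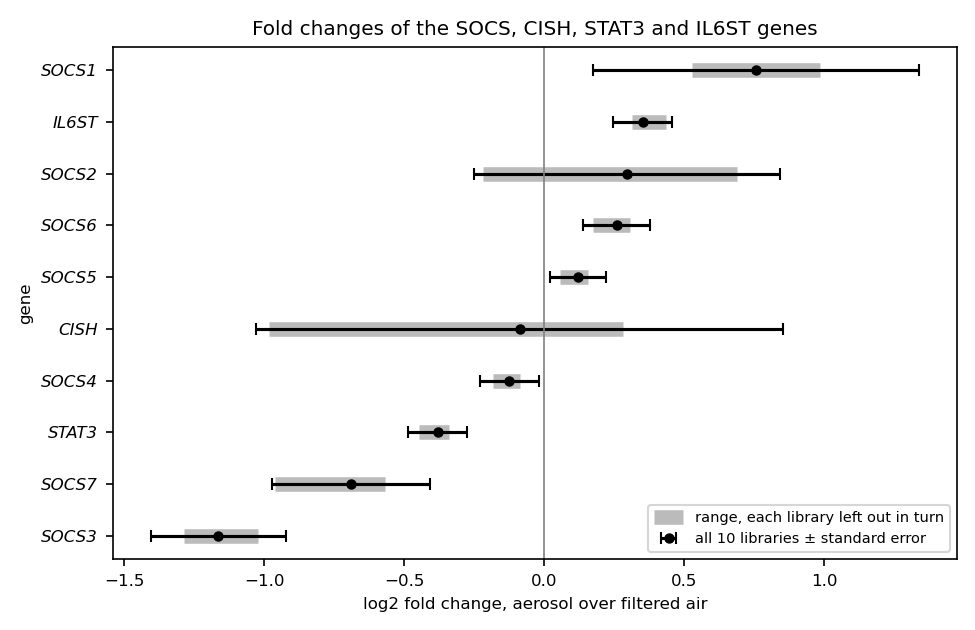
Log2 fold change of each gene, aerosol over filtered air (horizontal axis), as the fitted value ± standard error (points and thin bars) and as the range when each of the 10 libraries is left out in turn (grey bars). All genes but SOCS2 and CISH, which cross 0, keep their sign in every case, among them SOCS3 (-1.29 to -1.02) and IL6ST (0.31 to 0.43).

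Beyond the 10 genes, 9 lists of the pathway held 107 genes, of which 93 were measured well enough to be tested and 3 changed. That is 3.23%, against 3.01% of all genes, and the median log2 fold change was -0.12. CNTF rose, and RBX1 and TIMP1 fell. DESeq2 called 10 of the 91 to which it gave an adjusted p, against 8.91% of all such genes, and limma-voom 4 of the 93, against 3.33%. An unadjusted p under 0.05 was reached by 23 of the 93, against 18.3% of all genes. Over all genes 327 were called higher and 281 lower, against 482 and 171 with upper-quartile scaling and 244 and 318 with scaling by library size alone. The total of 608 was 262 and 309 without aerosol libraries 3 and 4, and 231, 187, 183 and 227 without filtered air libraries 1, 2, 3 and 4.

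Among the ligands of gp130 and their soluble partners, 1 of 8 tested rose, against 1.62% of all genes (median -0.20). None fell, against 1.39% of all genes. CNTF, ciliary neurotrophic factor, was at 5.74, 4.24, 4.47, 4.50 and 4.18 CPM in aerosol libraries 1 to 5, against 2.50, 1.15, 2.28, 2.02 and 1.13 CPM in filtered air libraries 1 to 5. All aerosol libraries were above all filtered air libraries, and the log2 fold change was 1.35 ± 0.32 (standard error, edgeR adjusted p = 0.0390). This call was kept without aerosol library 5 and lost without any other single library, with an edgeR adjusted p of up to 0.108. It was also lost with scaling by library size alone (edgeR adjusted p = 0.0636), with no filter on low counts (edgeR adjusted p = 0.0796) and without aerosol libraries 4 and 5 together (edgeR adjusted p = 0.0669). CNTF lies inside the annotated readthrough gene ZFP91-CNTF, listed at 0 counts in all libraries, and reads shared with that transcript cannot be told apart from those of CNTF. CNTF was itself low, on 100 to 366 counts per library. The inflammatory ligands were low too, and they were not called. IL6 averaged 1.64 ± 0.601 CPM after the aerosol and 1.88 ± 0.801 CPM in filtered air (SD, n = 5 each), and the log2 fold change of LIF was -0.29 ± 0.28 (standard error). OSM and IL27 had no count in any library.

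No partner receptor, Janus kinase or further STAT factor changed in the edgeR fit. Among 6 tested partner receptors (median -0.12) 1 had an unadjusted p under 0.05, against 18.3% of all genes. It was IL27RA, at 2.83 to 5.41 CPM after the aerosol and at 5.43 to 7.37 CPM in filtered air. Its log2 fold change was -0.76 ± 0.25 (standard error), and its groups did not overlap, against 7.45% of all genes. DESeq2 called IL27RA lower, against 8.91% of all genes to which DESeq2 gave an adjusted p, and limma-voom did not. OSMR, the oncostatin M receptor, whose fold change turned sign with scaling by library size alone (-0.0898 on the log2 scale), averaged 253 ± 17.9 CPM after the aerosol and 249.9 ± 20.4 CPM in filtered air, and LIFR, the receptor of leukaemia inhibitory factor, 229.7 ± 74.7 CPM after the aerosol and 186 ± 17.5 CPM in filtered air (SD, n = 5 each). LIFR was called without aerosol library 5, which at 109.6 CPM was the lowest of all 10. CNTFR, the receptor that binds CNTF, had no count in any library. Of 4 Janus kinases (median -0.03), none passed in edgeR, at an unadjusted p under 0.05, in DESeq2 or in limma-voom. JAK1, the main kinase on gp130, whose fold change turned to -0.0202 on the log2 scale with that scaling, averaged 328 ± 21.1 CPM after the aerosol and 309.9 ± 30.8 CPM in filtered air, and TYK2 46.1 ± 15.1 CPM after the aerosol and 50.8 ± 6.02 CPM in filtered air (SD, n = 5 each). Of 6 other STAT genes (median -0.06) 1 had an unadjusted p under 0.05, STAT5B, against 18.3% of all genes. Neither DESeq2 nor limma-voom called any of the 6. STAT6, the factor of interleukin-4, stood at -0.12 ± 0.13 (log2 fold change ± standard error).

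The machinery that works with SOCS proteins gave 1 call among 9 subunits tested, against 3.01% of all genes called in either direction. RBX1, the RING subunit of cullin ligases, was at 28.2, 31.6, 25.8, 26.7 and 28.7 CPM in aerosol libraries 1 to 5, against 44.4, 35.9, 41.6, 42.1 and 38.1 CPM in filtered air libraries 1 to 5. The groups did not overlap, and RBX1 fell by 0.52 ± 0.12 on the log2 scale (standard error, edgeR adjusted p = 0.0355). Its call was kept without aerosol library 2 or 5 or filtered air library 5 and lost without any other single library, with an edgeR adjusted p of up to 0.102. It was also lost with upper-quartile scaling (edgeR adjusted p = 0.0666) and without aerosol libraries 4 and 5 together (edgeR adjusted p = 0.0691). RBX1 serves mainly other cullins, and CUL5 with its own RING subunit RNF7 is the scaffold known for SOCS boxes. CUL5 was at 0.40 ± 0.13, RNF7 at -0.36 ± 0.16 and ELOB, the elongin that grips the SOCS box, at -0.51 ± 0.19 (log2 fold change ± standard error), none of them called. Over the 9 subunits tested the median was -0.21, and these 4 had an unadjusted p under 0.05, against 18.3% of all genes.

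Other inhibitors and other users of the SOCS box were not called in the edgeR fit. Among 10 phosphatase and PIAS genes (median 0.07) 1 had an unadjusted p under 0.05, PIAS1, against 18.3% of all genes. Neither DESeq2 nor limma-voom called any of the 10. PTPN11, the phosphatase SHP2 that docks on the same gp130 site as SOCS3, was at 0.10 ± 0.08 and PTPN1 at -0.16 ± 0.08 (log2 fold change ± standard error). Among 14 tested proteins with a SOCS box outside the SOCS family (median -0.14) 4 had an unadjusted p under 0.05, against 18.3% of all genes. DESeq2 called SPSB2 and ASB1 of them, against 8.91% of all genes to which it gave an adjusted p, and limma-voom none. WSB1 stood at 0.09 ± 0.12 (-0.0160 with scaling by library size alone) and WSB2 at -0.34 ± 0.11 on that scale. Among 14 tested further receptors and adaptors that SOCS proteins restrain (median -0.02) 2 had an unadjusted p under 0.05, against 18.3% of all genes. Of the 14, DESeq2 called EGFR alone, against 8.91% of all genes to which it gave an adjusted p. Limma-voom also called EGFR alone, against 3.33% of all genes. EGFR averaged 579 ± 22.2 CPM after the aerosol and 475 ± 37.0 CPM in filtered air, and IGF1R 57.5 ± 14.7 CPM after the aerosol and 78.1 ± 4.75 CPM in filtered air (SD, n = 5 each). EGFR was the 1 gene of the 14 whose groups did not overlap, against 7.45% of all genes.

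Targets of STAT3 known from textbooks gave 1 call. Of 22 tested, 1 fell, against 1.39% of all genes, and none rose, against 1.62%. A log2 fold change below 0 was found in 15, against 50.4% of all genes. The median was -0.29, against -0.0042 over all genes. An unadjusted p under 0.05 was reached by 9 of the 22, against 18.3% of all genes. Of the 9, BCL6, BIRC5, CCND1, ICAM1, S1PR1, TIMP1 and VEGFA were lower and JUNB and MCL1 higher. The groups did not overlap in 3 of the 22 (BCL6 and TIMP1 lower, JUNB higher), against 7.45% of all genes. TIMP1, an inhibitor of metalloproteinases, was at 189, 154, 160.1, 155 and 159 CPM in aerosol libraries 1 to 5, against 206, 262, 247, 256 and 211 CPM in filtered air libraries 1 to 5. No aerosol library reached the filtered air range, and TIMP1 fell by 0.53 ± 0.10 on the log2 scale (standard error, edgeR adjusted p = 0.0167). Its call was lost without filtered air library 2, 3 or 4, with an edgeR adjusted p of up to 0.0536. DESeq2 called 4 targets, against 8.91% of all genes to which it gave an adjusted p. They were TIMP1, the lipid receptor S1PR1, JUNB of the AP-1 factor and the survival protein MCL1. JUNB (0.54 ± 0.20) and MCL1 (0.40 ± 0.11) were above 0 and S1PR1 (-0.89 ± 0.29) was below it (log2 fold change ± standard error). The 8 genes of the list that were too low to test included SAA1, CRP and FGB, which encode acute-phase proteins.

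**Figure D4:**
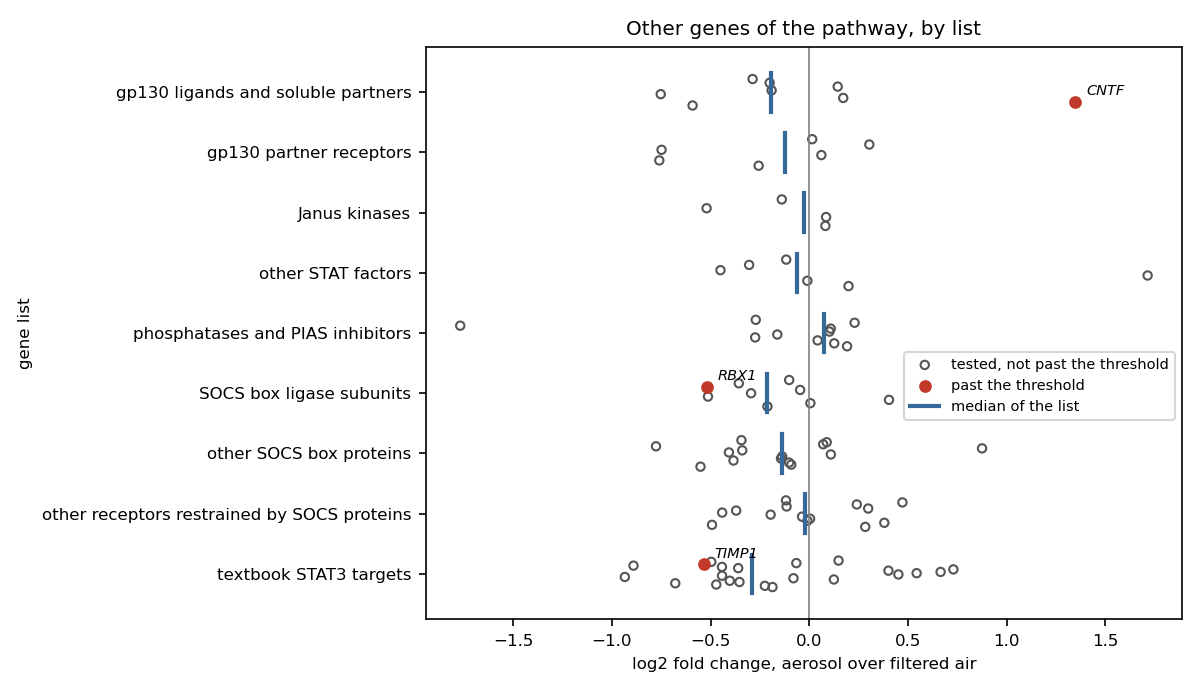
Log2 fold change, aerosol over filtered air (horizontal axis), of each tested gene in the 9 pathway lists (circles, filled where the adjusted p was under 0.05), with a bar at the median of each list. Only CNTF, RBX1 and TIMP1 are filled, and the list medians lie between -0.29 and 0.07.

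The genes most like SOCS3 over the 10 libraries, by Pearson correlation of log2 CPM among 13506 protein-coding genes, were TUBB (0.988), CAVIN1 (0.988), COPE (0.986), COTL1 (0.982) and KPNA6 (0.982). All 5 were lower after the aerosol, with log2 fold changes between -0.59 and -0.25. Choice by likeness to SOCS3, whose groups did not overlap, brings that direction with it. When deviations from the group means were compared instead, the closest were SLC2A4RG (0.990), ZNF768 (0.987), SCRIB (0.986), NACC1 (0.985) and EPN1 (0.983). These likenesses are descriptions of 10 libraries that share the differences in composition given above. For annotation, SOCS2 overlaps its antisense gene SOCS2-AS1 (1.75 ± 1.07 CPM after the aerosol and 1.62 ± 0.838 CPM in filtered air), and CISH overlaps MAPKAPK3 (23.5 ± 3.45 CPM after the aerosol and 35.4 ± 4.93 CPM in filtered air, SD, n = 5 each). TIMP1 lies within SYN1 (1.87 ± 1.13 CPM after the aerosol and 1.11 ± 0.528 CPM in filtered air), and STAT6 overlaps NAB2 (11.4 ± 5.33 CPM after the aerosol and 20.2 ± 4.02 CPM in filtered air, SD, n = 5 each). OSMR overlaps RICTOR (277 ± 42.6 CPM after the aerosol and 219.8 ± 56.4 CPM in filtered air). JAK1 overlaps RAVER2 (49.2 ± 9.76 CPM after the aerosol and 39.8 ± 7.43 CPM in filtered air). WSB2 overlaps RFC5 (45.4 ± 7.40 CPM after the aerosol and 44.6 ± 5.91 CPM in filtered air, SD, n = 5 each). Whether counting used strand is not stated in the labels, so reads in these overlaps cannot be assigned to either gene.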

How the data were processed

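The authors deposited 1 whole-number count per Ensembl gene for each of 10 mRNA libraries. The tools listed, without roles, in the submitters' processing notes are featureCounts 1.5.0-p3, HISAT and DESeq 1.8.3, with the build hg38. Neither the annotation release nor the strand setting nor the handling of shared reads is given in the sources used here. The 10 miRNA libraries were not analysed here. Symbols came from a table that matched 58207 of 58735 identifiers, and positions, biotypes and promoters from RefSeq (GRCh38.p14), by symbol.

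Counts were tested with edgeR 4.0.16 (R 4.3.3): TMM scaling, the filterByExpr filter, and quasi-likelihood F tests (robust option, no covariate beside group) over 20166 genes, leaving out 38569. The procedure was checked on counts simulated from the fitted dispersions, a setting without the outlying libraries or the differences in composition described above. A gene is called at a Benjamini-Hochberg adjusted p under 0.05. The standard error is the fold change over the root of its F statistic. CPM is the count per 1000000 counts of the TMM-scaled library. The p-values measure the spread between the 5 libraries of a group, and the labels do not say whether they were separate cultures. No 2 libraries agreed within sampling noise (lowest chi-square per degree of freedom 66.9, aerosol libraries 1 and 2).

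The members and lists were chosen with earlier results of these data known. Named were all 10 members, up to 4 called genes of each list by p or else its 2 highest, and the 5 genes most like SOCS3 by each measure, less 1 list gene that is not reported here. Other list members, marker genes and overlapping genes were named after their values were seen. Alternatives were other scalings, filters and thresholds, DESeq2 1.42.0, limma-voom (limma 3.58.1), the replicate number as a block, and leaving out libraries.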

Additional observations from a re-analysis of the deposited data

Results flagged for a closer look

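In groups of 5 libraries, 48 of them checked, the highest or lowest library of 4 lay far from its neighbours for the group's whole range (a gap over 0.71 of the range). Chance alone marks about 1 in 20 groups. SOCS4 was at 61.6 CPM in aerosol library 2, with the other 4 aerosol libraries between 70.7 and 73.5 CPM. CNTF was at 5.74 CPM in aerosol library 1, with the others between 4.18 and 4.50 CPM. TIMP1 was at 189 CPM in aerosol library 1, with the others between 154 and 160.1 CPM. JAK1 was at 364 CPM in filtered air library 5, with the others between 289 and 303 CPM.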

How the results depend on the processing

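Over all genes, 608 were called in the main analysis, 1585 by DESeq2, 87 at a threshold of 0.01, and 183 to 757 with single libraries left out. Among pathway genes, 3 were called in the main analysis, 10 by DESeq2, 5 with a minimum of 10 counts in all libraries, 0 at a threshold of 0.01, and 0 to 5 with single libraries left out. Among the 10 members, 1 was called in the main analysis, 3 by DESeq2, 0 at a threshold of 0.01, and 0 to 2 with single libraries left out. With the replicate block 450 genes, 1 pathway gene (TIMP1) and 1 member were called, CNTF (edgeR adjusted p = 0.0625) and RBX1 (edgeR adjusted p = 0.0811) being lost. Same-numbered libraries deviated together only weakly (correlations of 0.00781 to 0.0529), and for that reason the numbers were not taken as pairs. All these correlations were above 0, however, and 3 of 5 aerosol libraries correlated best with their own number, so a pairing was not excluded. Among single genes that were not called, OSMR (0.0149 in the main analysis) reversed to -0.0898 with library size alone, -0.0136 without a low-count filter and -0.0647 without aerosol libraries 4 and 5, and ran from -0.0289 to 0.0429 with single libraries left out. JAK1 (-0.0202) and WSB1 (-0.0160) reversed with library size alone, and TYK2 (0.0905) and STAT6 (0.0308) without aerosol libraries 4 and 5. The cause was not tested. The signs of SOCS3, STAT3 and IL6ST held in all 19 alternative fits, as did those of SOCS1 and SOCS4 to SOCS7. Only SOCS2 and CISH among the members changed sign in some fit. SOCS1 and CISH had at most 196 counts in any library, and their biological coefficients of variation in the fit were 0.651 and 0.995.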
